A study of Mus musculus with 6 samples.

Results

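The genes described here encode the machinery that brings glucose into the cell, splits it to pyruvate and moves lactate out, with the pentose phosphate branch and the hypoxia-inducible factor (HIF) genes that act on the same machinery. A list of 38 mouse genes was compared between vehicle-treated and rGDF11-treated osteoclast precursors, isoform by isoform. A gene entered through a probe set that the array annotation paired with its symbol and no other, and where a gene had several such probe sets the brightest over the arrays was used. By this rule 33 of the 38 genes were measured, out of 19938 genes represented in this way. Gapdh was represented by 25 probe sets that all carried further symbols, and Gpi1, Eno1, G6pdx and Pfkfb1 were not analysed here.

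The cells were BMMs, bone marrow-derived macrophages grown with M-CSF from marrow flushed out of the tibiae of mice aged 9 weeks. Both groups received M-CSF at 100 ng per ml and RANKL, the cytokine that drives macrophages towards osteoclasts, at 50 ng per ml for 24 h. One group of 3 arrays had vehicle only and the other group of 3 arrays had rGDF11, recombinant growth differentiation factor 11 of the TGF-β superfamily, at 100 ng per ml. The arrays are labelled as biological replicates, but none of the sources used here tells whether each came from a separate mouse. The p-values therefore refer to the spread among these 6 cultures. No array of cells without RANKL was analysed here, so every difference below is that of rGDF11 added to RANKL.

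Glycolysis is controlled at a few steps. Glucose enters through the facilitative transporters of the Slc2a family, hexokinases trap it as glucose phosphate, phosphofructokinase commits it to glycolysis, and pyruvate kinase forms pyruvate. Most of these steps are served by several isoenzymes from separate genes, which differ in tissue distribution, in where they sit in the cell and in how they are regulated. Lactate dehydrogenase turns pyruvate to lactate, which leaves the cell through the monocarboxylate transporters of the Slc16a family. Macrophages lean on glycolysis when activated, and osteoclasts draw on both glycolysis and mitochondrial respiration while they form and resorb bone.

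All values are log2 signals after robust multi-array averaging (RMA), and a difference of 1 on this scale is a doubling. The median of an array lay between 6.11 and 6.18, arrays of 1 group correlated at 0.997 to 0.998 over all rows, and arrays of different groups at 0.989 to 0.991. A gene was called at a limma adjusted p under 0.05, and counts are also given at the threshold in the study's methods, a fold change of 1.5 with an unadjusted p under 0.01. Signals of different probe sets are not compared with each other, because their probes bind with different strength.

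Of the 33 genes, 6 were higher with rGDF11 (Slc2a1, Hk2, Pfkfb3, Ldhb, Slc16a1 and Egln3), 7 were lower (Slc2a3, Slc2a6, Hk3, Pfkp, Pfkfb4, Aldoc and Pkm) and 20 did not pass. The rises ran from 0.26 to 0.57 and the falls from -0.21 to -1.08. Over all 19938 genes 7.49% were called higher and 9.13% lower. Among the 9969 genes above the median signal, where 31 of the 33 lay, the shares were 12.5% higher and 16.2% lower, beside 18.2% and 21.2% of the glycolysis and transport genes. At the methods' threshold, with the limma p-value, 0 genes of the list were higher and 5 were lower (Slc2a6, Hk3, Pfkp, Pfkfb4 and Aldoc). The shares over all genes were 2.13% and 3.06%. Among the 9969 genes above the median signal, 377 passed it as higher and 539 as lower. The vehicle and rGDF11 arrays did not overlap in 22 of the 33 genes, a pattern shown by 33.7% of all genes. The list as a whole had a median log2 change of -0.07, beside 0.03 over all genes.

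**Figure D1:**
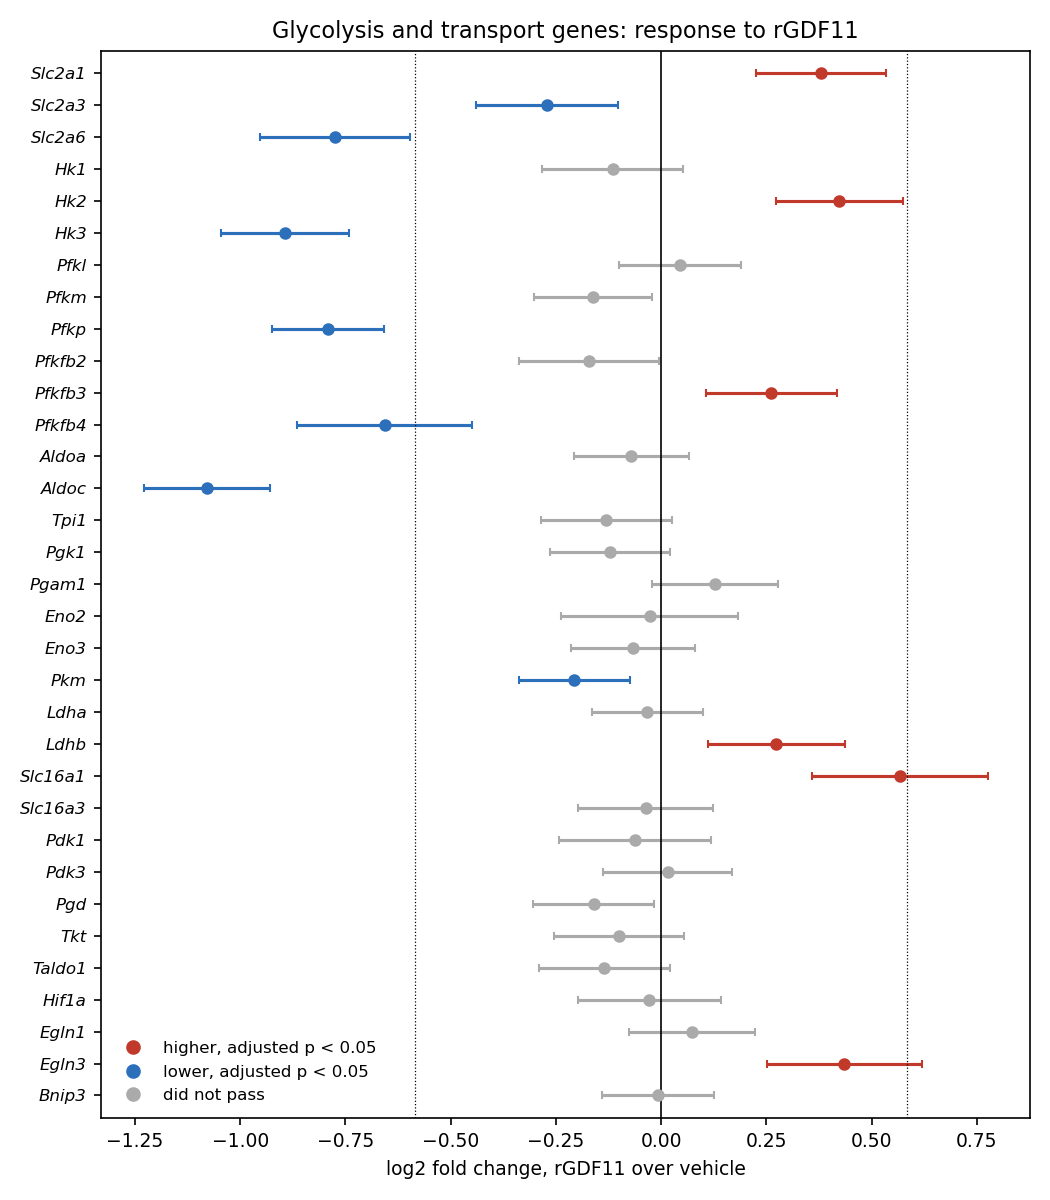
Log2 fold change of rGDF11 over vehicle (horizontal axis) for the 33 genes in pathway order, with 95% confidence intervals from limma and 3 arrays per group. Red points were called higher, blue points lower, and grey points did not pass at an adjusted p under 0.05. Dotted lines mark a 1.5-fold change. The blue points furthest to the left are Aldoc, Hk3, Pfkp, Slc2a6 and Pfkfb4, and the red point furthest to the right is Slc16a1 at 0.57.

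Sequence upstream of the genes was available for 32 of the 33, all but Slc2a3, as RefSeq promoter windows of 250 bases before to 50 bases after the start on assembly GRCm38.p6. Both hexokinase windows are shown because the pair moved in opposite directions. Also shown are the window of Slc16a1, which rose most on the brightest probe sets, and that of Pfkp, which fell. Capitals mark ACGTG or GCGTG on either strand, the letters at the core of the sites that HIF binds. A match on the other strand reads CACGT or CACGC as printed. The start of transcription lies 50 bases from the 3′ end of each window.

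Hk2, called higher, chr6:82774405-82774704, minus strand: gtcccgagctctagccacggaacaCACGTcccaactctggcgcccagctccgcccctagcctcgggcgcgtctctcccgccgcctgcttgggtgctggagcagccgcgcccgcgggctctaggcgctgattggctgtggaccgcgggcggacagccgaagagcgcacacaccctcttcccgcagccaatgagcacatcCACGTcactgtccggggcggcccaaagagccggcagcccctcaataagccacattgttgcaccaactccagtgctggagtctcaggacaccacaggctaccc
Slc16a1, called higher, chr3:104638414-104638713, plus strand: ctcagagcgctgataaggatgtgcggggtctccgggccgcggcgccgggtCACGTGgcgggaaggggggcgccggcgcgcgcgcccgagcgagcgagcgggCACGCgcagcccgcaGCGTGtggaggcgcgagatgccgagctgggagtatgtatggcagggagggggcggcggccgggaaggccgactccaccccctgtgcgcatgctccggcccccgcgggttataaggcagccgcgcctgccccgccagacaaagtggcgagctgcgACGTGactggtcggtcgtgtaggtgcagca
Hk3, called lower, chr13:55021336-55021635, minus strand: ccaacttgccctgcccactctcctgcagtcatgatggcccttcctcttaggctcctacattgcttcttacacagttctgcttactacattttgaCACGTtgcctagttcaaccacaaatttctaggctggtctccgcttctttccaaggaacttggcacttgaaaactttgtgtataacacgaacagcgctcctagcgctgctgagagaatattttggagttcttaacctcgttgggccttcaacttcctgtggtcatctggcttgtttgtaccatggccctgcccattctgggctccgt
Pfkp, called lower, chr13:6648722-6649021, minus strand: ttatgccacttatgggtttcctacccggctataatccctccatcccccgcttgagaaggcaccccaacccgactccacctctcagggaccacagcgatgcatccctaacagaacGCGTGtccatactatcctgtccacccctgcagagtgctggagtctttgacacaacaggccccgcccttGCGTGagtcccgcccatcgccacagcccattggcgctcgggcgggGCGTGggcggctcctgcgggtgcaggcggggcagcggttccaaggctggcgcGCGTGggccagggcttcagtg

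The Hk2 window held 2 matches, the Slc16a1 window 5, the Hk3 window 1 and the Pfkp window 4. The Slc16a1 window also held the E-box CACGTG, the sequence that Myc and other basic helix-loop-helix factors bind, which contains ACGTG on both strands. Over the 46 windows of the listed genes, 38 (82.6%) held ACGTG or GCGTG, beside 43.8% of all 32851 windows of the same length. At least 1 window held these letters in 30 of the 32 genes, among them 6 of 6 called higher and 6 of 6 called lower. With so few genes lacking them, their presence could not separate the directions. Taken singly, ACGTG was in 5 of 6 genes called higher and 3 of 6 called lower, and GCGTG in 4 of 6 and 4 of 6. CACGTG was in 2 of 6 and 0 of 6, and none of these counts was tested. CACGTG was in 7 of 46 windows, against 7.15% of all. The AP-1 site TGACTCA was in 1 of 46 windows, against 5.20% of all. The Smad palindrome GTCTAGAC was in 0 of 46 windows, against 0.213% of all. Base composition was not matched between these windows and the rest. A match is a stretch of letters and not a bound site.

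The 3 glucose transporters all passed, in both directions. Slc2a1 encodes GLUT1, the carrier of basal glucose uptake in most cells. Its signal was 11.59, 11.46 and 11.55 on the vehicle arrays and 11.88, 11.88 and 11.98 on the rGDF11 arrays. It rose 1.30-fold, by 0.38 ± 0.07 (SE) on the log2 scale (adjusted p = 0.00669), and the groups did not overlap.

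Slc2a6 encodes GLUT6, a transporter found on inner membranes of macrophages. It read 10.34, 10.11 and 10.26 with vehicle and 9.52, 9.41 and 9.45 with rGDF11. All rGDF11 arrays lay below all vehicle arrays, with a log2 change of -0.77 ± 0.08 (SE), 1.71-fold lower (adjusted p = 0.000418). Slc2a3 encodes GLUT3, a carrier of high affinity. It read 7.91, 7.97 and 7.85 with vehicle and 7.71, 7.53 and 7.68 with rGDF11, a log2 change of -0.27 ± 0.07 (SE) with an adjusted p of 0.0415. The Slc2a3 call was lost when any 1 of the 6 arrays was left out.

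Hexokinase, the first enzyme of the pathway, showed a split between Hk2 and Hk3. Hk2 is the inducible isoenzyme that can dock on mitochondria. Its arrays read 8.09, 8.04 and 8.07 with vehicle and 8.45, 8.45 and 8.58 with rGDF11. The lowest rGDF11 array stood above the highest vehicle array, and Hk2 rose 1.34-fold, by 0.42 ± 0.06 (SE) (adjusted p = 0.00361). Hk3 is the isoenzyme typical of myeloid cells. It read 9.34, 9.28 and 9.32 with vehicle and 8.50, 8.34 and 8.41 with rGDF11. Hk3 was 1.86-fold lower, a log2 change of -0.89 ± 0.07 (SE) with an adjusted p of 9.54e-05, and the gap between the groups was wider than the range of either.

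Hk1, the hexokinase of most tissues, did not pass on either of its probe sets. The brightest read 12.85, 12.89 and 12.91 with vehicle and 12.86, 12.79 and 12.65 with rGDF11, a log2 change of -0.12 ± 0.07 (SE) (adjusted p = 0.370). This probe set is doubtful as a reading of Hk1. Of its 10 nearest probe sets by number 0 were on the chromosome of Hk1, and the annotation pairs the symbol Hk1 with 16 further probe sets that also carry Rpl17, a ribosomal protein gene. The other probe set, with 10 of 10 such neighbours on the chromosome of Hk1, changed by -0.14 ± 0.07 (SE) (adjusted p = 0.270).

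Among the isoforms of phosphofructokinase, the step that commits glucose to glycolysis, Pfkp alone passed. Pfkp, the platelet isoform, read 10.87, 10.84 and 10.90 with vehicle and 10.08, 10.07 and 10.08 with rGDF11. The arrays of each group lay close together and the groups far apart, with a log2 change of -0.79 ± 0.06 (SE), 1.73-fold lower (adjusted p = 8.96e-05). Pfkl, the liver isoform, read 9.36, 9.33 and 9.38 against 9.47, 9.36 and 9.38. The groups overlapped, and the change of 0.04 had a 95% confidence interval of -0.10 to 0.19 (adjusted p = 0.717). Pfkm, the muscle isoform, read 7.59, 7.65 and 7.67 against 7.49, 7.51 and 7.43, a change of -0.16 that did not pass (adjusted p = 0.127) although the groups did not overlap.

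The Pfkfb genes encode enzymes that make and remove the fructose bisphosphate that activates phosphofructokinase. Pfkfb4 read 7.67, 7.81 and 7.86 with vehicle and 7.19, 7.21 and 6.97 with rGDF11. It was 1.58-fold lower, with a log2 change of -0.66 ± 0.09 (SE) and an adjusted p of 0.00204. Pfkfb3, whose product mainly makes the activator, moved the other way. It read 6.904, 7.014 and 7.004 with vehicle and 7.21, 7.31 and 7.18 with rGDF11, and was 1.20-fold higher, by 0.26 ± 0.07 (SE) (adjusted p = 0.0347). The Pfkfb3 call was lost when any 1 of the 6 arrays was left out. Pfkfb2, best known from heart, read 7.82, 7.93 and 7.87 against 7.76, 7.76 and 7.60 and did not pass, at -0.17 ± 0.07 (SE) (adjusted p = 0.171).

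Aldolase splits the product of phosphofructokinase, and the 2 measured aldolase isoforms differed. Aldoc, the isoform known from brain, had the largest fall of the 33 genes. It read 10.24, 10.19 and 10.09 with vehicle and 9.09, 9.10 and 9.09 with rGDF11. The groups were separated by 6.35 times the range of the vehicle arrays, and Aldoc was 2.11-fold lower, at -1.08 ± 0.06 (SE) (adjusted p = 4.10e-05). Aldoa, the isoform of muscle and most other cells, read 12.96, 12.90 and 12.92 with vehicle and 12.85, 12.83 and 12.90 with rGDF11. It changed by -0.07, with a 95% confidence interval of -0.21 to 0.07 (adjusted p = 0.510).

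**Figure D2:**
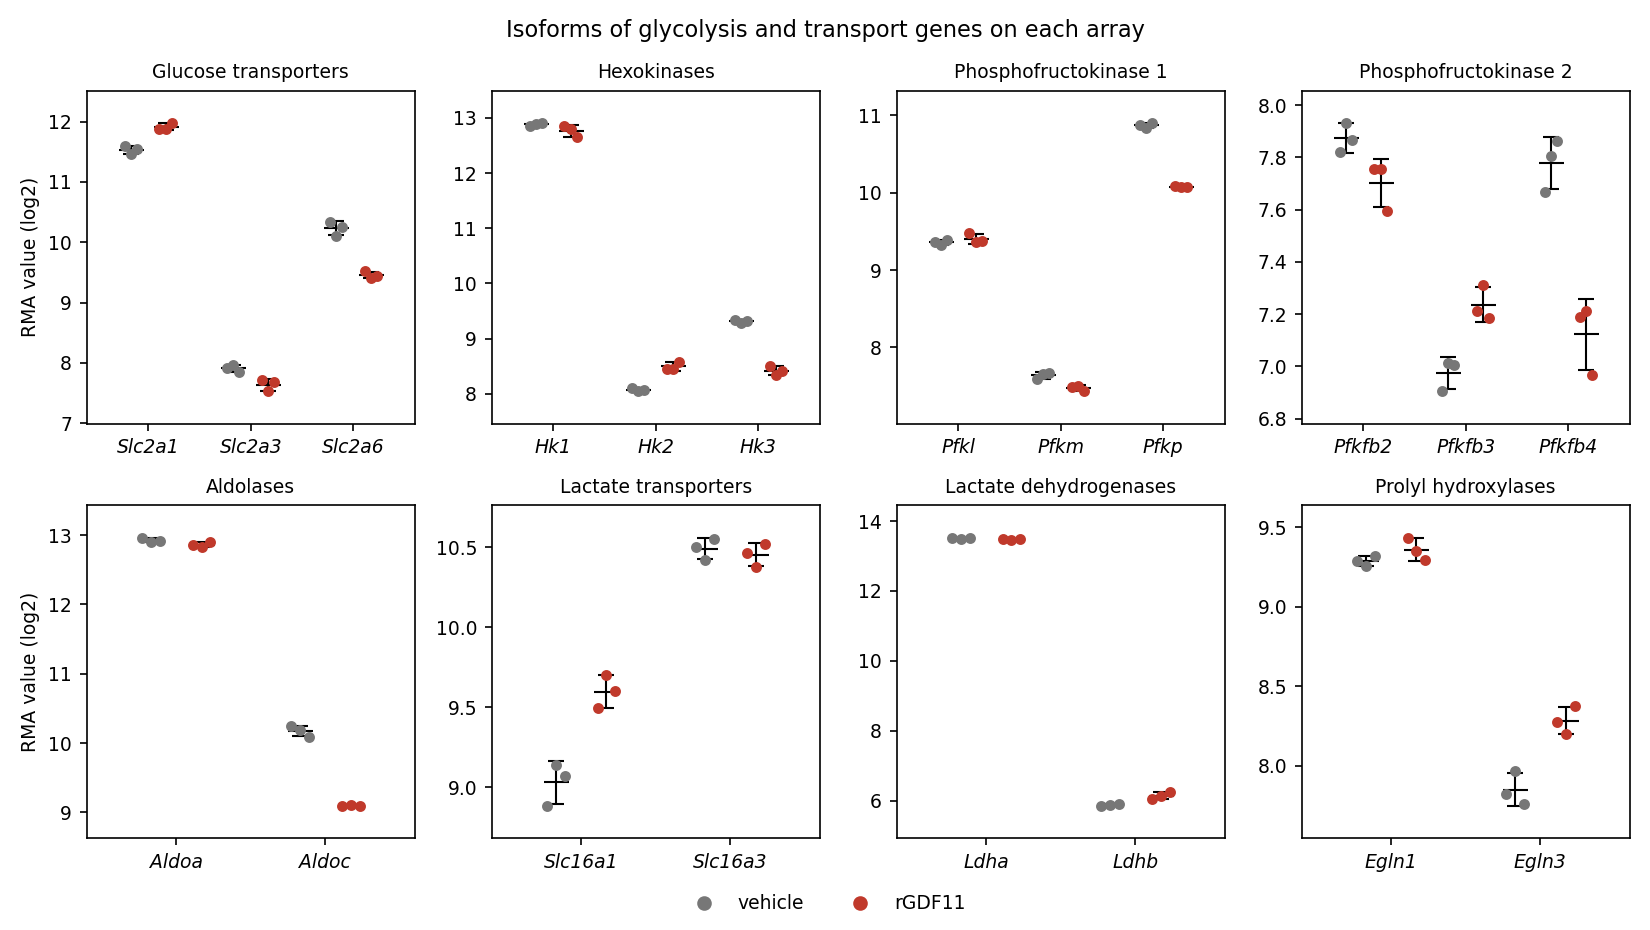
RMA log2 signal (vertical axis, with its own range in each panel) on each of the 3 vehicle (grey) and 3 rGDF11 (red) arrays for isoforms of 8 families, with lines at the group mean and 1 SD on either side. The Hk1 points are those of its brightest probe set, which is doubtful as a reading of Hk1. Slc2a6, Hk3, Pfkp, Pfkfb4 and Aldoc sit lower with rGDF11, Slc2a1, Hk2, Slc16a1 and Egln3 sit higher, and Pfkl, Slc16a3 and Ldha lie close to their vehicle values.

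In lower glycolysis, from triose phosphate to pyruvate, 1 of 6 genes passed. Pkm, pyruvate kinase, read 12.06, 12.05 and 12.05 with vehicle and 11.84, 11.82 and 11.88 with rGDF11. It was 1.15-fold lower, at -0.21 ± 0.06 (SE) (adjusted p = 0.0472), and the call was lost when any 1 of the 6 arrays was left out. The other Pkm probe set, the one numbered among probe sets of its chromosome, fell by 0.30 (adjusted p = 0.0118). The arrays do not separate the splice forms of Pkm. Tpi1, triose phosphate isomerase, changed by -0.13 (adjusted p = 0.265), and Pgk1, which makes the first ATP of the pathway, by -0.12 (adjusted p = 0.255). Pgam1, phosphoglycerate mutase, was at 0.13 (adjusted p = 0.253). The enolases Eno2 and Eno3 were at -0.03 (adjusted p = 0.892) and -0.07 (adjusted p = 0.572).

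Gapdh could be read only through its 25 shared probe sets. Their values lay between 12.47 and 13.59, their changes between -0.045 and -0.021 on the log2 scale, and the lowest adjusted p was 0.702. Every 95% confidence interval among them was within -0.182 to 0.120. Several of the 25 had identical values on all 6 arrays, so they are not separate readings. Gapdh was the reference gene of the study's RT-PCR.

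Very bright probe sets carry a limit of their own. Among the rows with a gene symbol the highest value was 13.59. A mean above 12 was found in 7 of the 33 genes (Hk1 by its brightest probe set, Aldoa, Tpi1, Pgk1, Pgam1, Ldha and Pgd). Of these 7, 0 were called by limma, their changes ran from -0.16 to 0.13, and the lowest adjusted p was 0.138. At an unadjusted p under 0.05 there was 1 (Pgd). The shared Gapdh probe sets, not among the 7, also read above 12. Signals near the top of the scale can understate a change, and the part this plays was not tested.

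**Figure D3:**
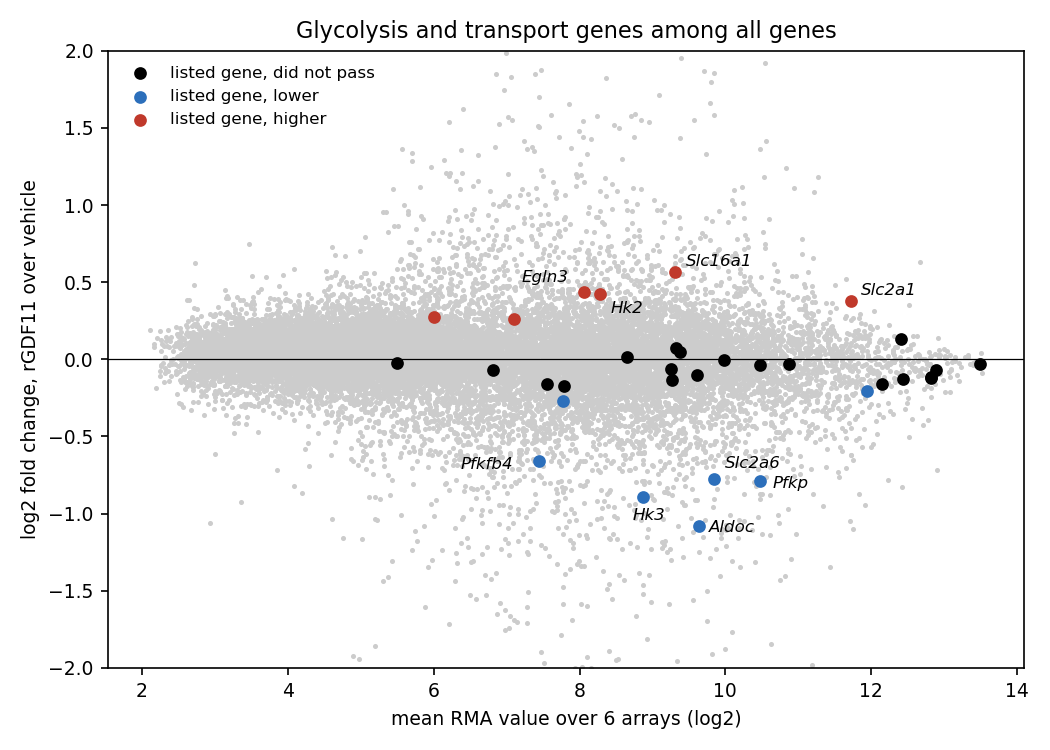
Log2 fold change of rGDF11 over vehicle (vertical axis) against mean RMA log2 signal over the 6 arrays (horizontal axis). Small grey points are the 19938 genes, of which 62 lie beyond the vertical axis limits of 2 in either direction and are not drawn. Large points are the 33 glycolysis and transport genes, red for higher, blue for lower and black for those that did not pass, and the ones with a mean signal above 12 all lie between -0.16 and 0.13.

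At the exit of the pathway 2 of 6 genes rose. Slc16a1 encodes MCT1, a proton-coupled carrier that moves lactate and pyruvate in either direction. It read 8.88, 9.14 and 9.07 with vehicle and 9.49, 9.70 and 9.60 with rGDF11. The groups did not overlap, and Slc16a1 was 1.48-fold higher, by 0.57 ± 0.09 (SE) (adjusted p = 0.00427), the largest rise of the list on the brightest probe sets. Slc16a3 encodes MCT4, the carrier linked with lactate export from highly glycolytic cells. It read 10.50, 10.42 and 10.55 with vehicle and 10.47, 10.38 and 10.52 with rGDF11, and its change of -0.04 had a 95% confidence interval of -0.20 to 0.12 (adjusted p = 0.793).

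Ldha, the lactate dehydrogenase subunit that favours lactate formation, read 13.50, 13.49 and 13.53 against 13.49, 13.45 and 13.48. Its change was -0.03, with a 95% confidence interval of -0.16 to 0.10 (adjusted p = 0.776). Ldhb, the heart-type subunit, was dim, below the median signal of all genes. It read 5.84, 5.88 and 5.90 with vehicle and 6.05, 6.14 and 6.24 with rGDF11, a rise of 0.27 ± 0.07 (SE) (adjusted p = 0.0346) that was lost when any of 5 of the 6 arrays was left out. The other Ldhb probe set, numbered among probe sets of its chromosome, rose by 0.57 (adjusted p = 0.0287). That probe set was dimmer still, with a mean of 5.62. Its arrays ran from 5.08 to 5.63 with vehicle and from 5.80 to 6.05 with rGDF11. The pyruvate dehydrogenase kinases, which hold pyruvate back from the mitochondria, did not pass, with Pdk1 at -0.06 (adjusted p = 0.681) and Pdk3 at 0.02 (adjusted p = 0.919).

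The pentose phosphate pathway, which supplies NADPH and ribose, had 0 of 3 genes called by limma. Pgd, phosphogluconate dehydrogenase, was at -0.16 (adjusted p = 0.138), Tkt, transketolase, at -0.10 (adjusted p = 0.399) and Taldo1, transaldolase, at -0.13 (adjusted p = 0.251). At an unadjusted p under 0.05 there was 1 (Pgd). G6pdx, the entry enzyme of this branch, was not analysed here.

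Of the 4 HIF pathway genes 1 rose. Egln3 encodes PHD3, a prolyl hydroxylase that marks HIF for removal and is itself a known target of HIF. It read 7.82, 7.96 and 7.76 with vehicle and 8.27, 8.20 and 8.37 with rGDF11, and was 1.35-fold higher, by 0.43 ± 0.08 (SE) (adjusted p = 0.00828), with no overlap between the groups. Egln1, which encodes PHD2, the main hydroxylase of normoxic cells, read 9.29, 9.26 and 9.32 against 9.44, 9.35 and 9.29 and was at 0.07 (adjusted p = 0.537). Hif1a, whose product is controlled mainly at the level of the protein, was at -0.03 (adjusted p = 0.860). Bnip3, a mitophagy gene and HIF target, was at -0.01 (adjusted p = 0.958).

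For the 20 genes that did not pass, the 95% confidence intervals lay between -0.34 and 0.28, so each interval was inside a 1.5-fold change in either direction. The intervals of Pfkm, Pfkfb2 and Pgd lay below 0 although their adjusted p-values did not pass. Of the 13 calls, 9 (Slc2a1, Hk2, Slc16a1 and Egln3 higher, and Slc2a6, Hk3, Pfkp, Pfkfb4 and Aldoc lower) passed under all 18 alternative settings, and 4 (Slc2a3, Pfkfb3, Pkm and Ldhb) did not.

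Isoforms of the same step were then compared with each other within each array. For a pair, the difference of the log2 signals was taken on every array and the vehicle arrays were set against the rGDF11 arrays, which tests whether the isoforms changed unequally. There were 18 pairs. With 3 arrays against 3, the exact two-sided permutation test cannot go below p = 0.1, and after Benjamini-Hochberg adjustment over the pairs the lowest value was 0.1125, so no pair could pass at 0.05. In 16 of the 18 pairs the groups did not overlap, which gives that smallest p, beside 36.0% of all pairs of the 19938 genes. A pair tends to separate when either gene was called. Of the 18 pairs 15 held a called gene and all 15 separated, beside 79.7% of all gene pairs that held one, and of the 3 pairs without a called gene 1 separated (Pfkm against Pfkl).

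Hk3 against Hk2 was the widest. The difference of their signals was 1.24 on all 3 vehicle arrays and between -0.17 and 0.05 with rGDF11, a shift of -1.32 ± 0.07 (SE). Slc2a6 shifted against Slc2a1 by -1.15 ± 0.06 (SE), and Aldoc against Aldoa by -1.01 ± 0.04 (SE). Pfkfb4 shifted against Pfkfb3 by -0.92 ± 0.06 (SE). Each of these shifts was many times its standard error, and the partner rose in all of them except Aldoa, which did not pass.

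Pfkp shifted against Pfkl by -0.84 ± 0.03 (SE) and against Pfkm by -0.63 ± 0.04 (SE), so the platelet isoform fell relative to both others. Slc16a3 shifted against Slc16a1 by -0.60 ± 0.13 (SE), where the partner was the one that rose. Slc2a3 shifted against Slc2a1 by -0.65 ± 0.08 (SE). The smaller shifts were those of Pfkfb4 against Pfkfb2 (-0.49), Slc2a6 against Slc2a3 (-0.50), Pfkfb3 against Pfkfb2 (0.43), Egln3 against Egln1 (0.36), Ldhb against Ldha (0.31) and Pfkm against Pfkl (-0.21). Hk2 and Hk3 shifted against the brightest Hk1 probe set by 0.54 and -0.78, with the doubt about that probe set given above.

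Eno3 against Eno2 and Pdk3 against Pdk1 were the pairs that overlapped. Their shifts were -0.04 ± 0.10 (SE) and 0.08 ± 0.11 (SE), with exact permutation p = 0.8 and p = 0.5.

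**Figure D4:**
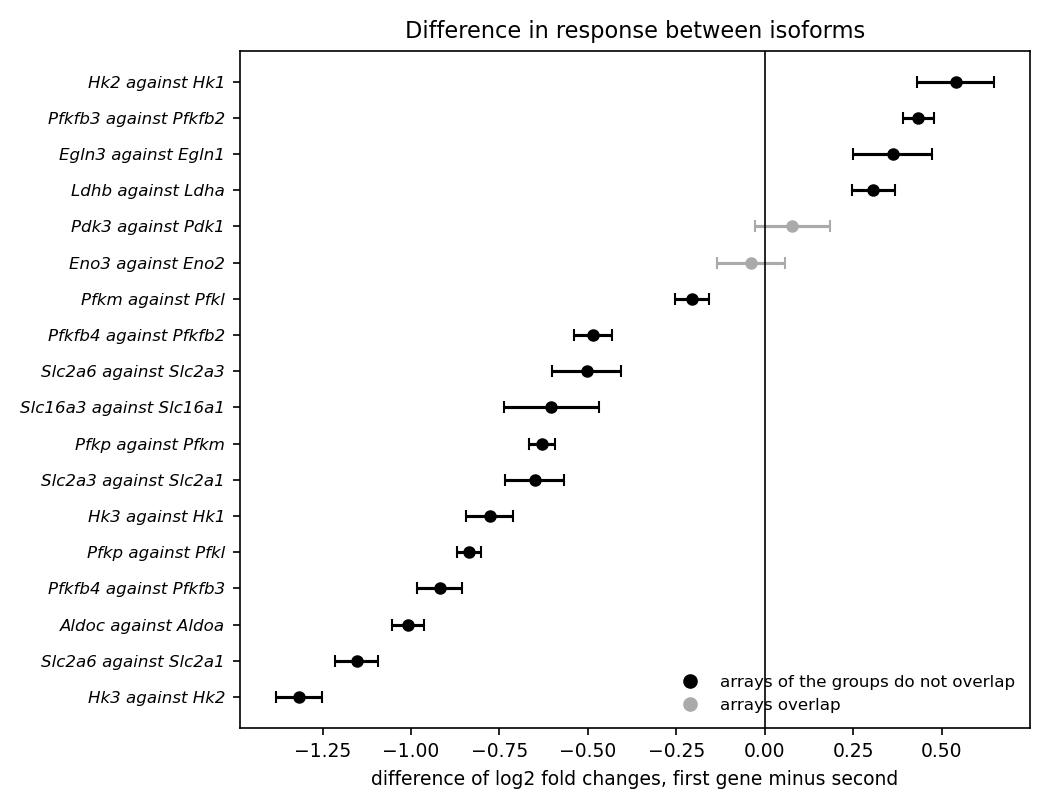
Difference in log2 response to rGDF11 between isoforms of the same family, first gene minus second (horizontal axis), for the 18 pairs. Each point is the shift in the within-array difference of signals with its standard error over 3 vehicle and 3 rGDF11 arrays, black where the groups did not overlap and grey where they did. Hk3 against Hk2, at -1.32, is furthest to the left, and Hk2 against Hk1, at 0.54, is furthest to the right.

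In 6 of the 33 genes (Hk1, Pgk1, Pgam1, Pkm, Ldhb and Bnip3) more than 1 probe set carried the symbol alone, and in all 6 the brightest was numbered away from the gene's chromosome. Of the 10 nearest probe sets by number 0 were on that chromosome, against 9 or 10 of 10 for a dimmer probe set of the same gene, while 97.1% of single-gene probe sets had a numbered neighbour on their own chromosome. For the other 27 genes at least 8 of 10 neighbours were on the gene's chromosome. With the own-chromosome probe sets in place of the brightest, 6 genes were again called higher and 7 lower, and the median stayed at -0.07. Whether the brightest probe sets read processed copies of these genes was not tested.

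**Figure D5:**
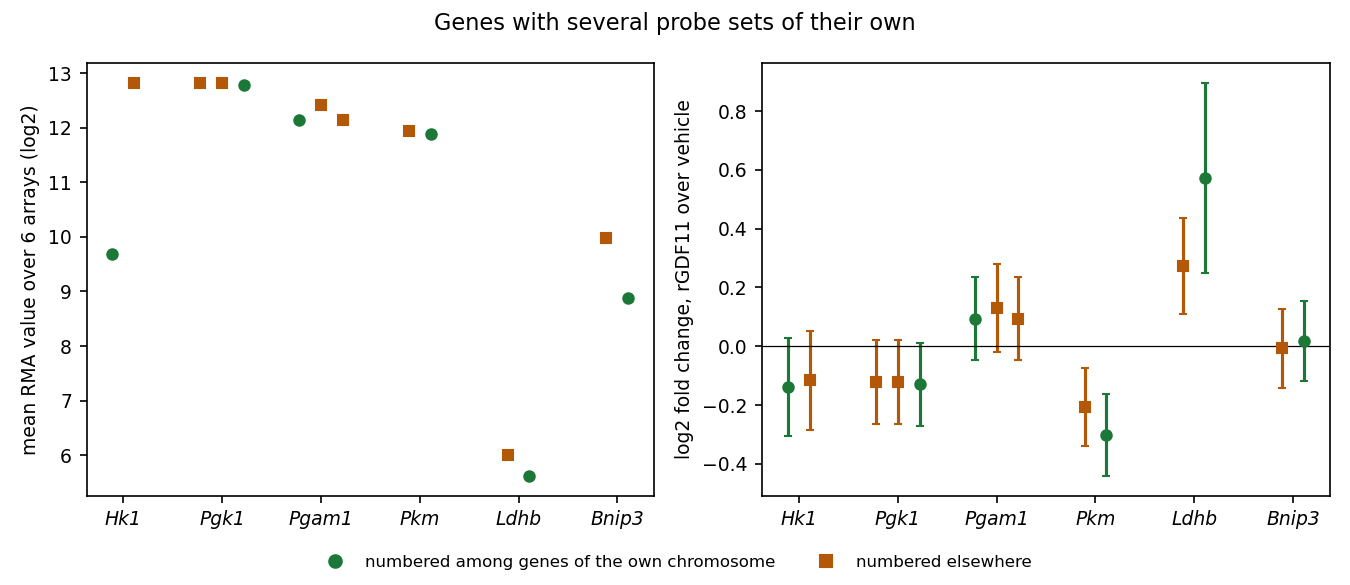
Mean RMA log2 signal over the 6 arrays (left panel) and log2 fold change of rGDF11 over vehicle with its 95% confidence interval (right panel) for every probe set of the 6 genes with more than 1 such probe set. Green circles are numbered among probe sets of the gene's chromosome and brown squares elsewhere. The fold changes were 0.27 (brightest) and 0.57 (own chromosome) for Ldhb, -0.21 and -0.30 for Pkm, and -0.12 and -0.14 for Hk1.

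Genes around the pathway were counted in 6 further lists, of which 123 of 133 genes were measured. In all, 13 (10.57%) were higher and 17 (13.82%) lower, beside 7.49% and 9.13% of all genes. These lists had a median signal of 7.78, against 6.13 over all genes. Among genes above the median signal 12.5% were higher and 16.2% lower. With 1 array left out the count of listed genes higher fell to 8 to 10 in each case, and that of listed genes lower was 12 to 17. The calls lost when 1 or more arrays were left out were 5 of the rises (Pdpr, Gpd2 and P4ha1 with any array, Shmt2 and Pck1 with 5 of the 6) and 5 of the falls (Prkag1 with any array, Pygl with 5, Slc16a7 and Mlx with 4 and Gbe1 with 3). The lists were chosen with earlier results of these data known, so their counts are a description.

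Of 26 other isoenzymes and transporters of sugar and lactate, 0 were higher by limma (0 also at an unadjusted p under 0.05) and 3 were lower (median -0.003). Emb, embigin, which escorts monocarboxylate transporters to the cell surface, read 10.60, 10.65 and 10.54 with vehicle and 9.91, 10.09 and 9.76 with rGDF11, a change of -0.67 (adjusted p = 0.00203). Slc2a9, a urate and sugar carrier, changed by -0.41 (adjusted p = 0.00684), and Slc16a7, the MCT2 carrier, by -0.33 (adjusted p = 0.0159). Bsg, basigin, the partner of MCT1 and MCT4, was at -0.02 (adjusted p = 0.867). Of 12 genes of pyruvate entry to mitochondria, 1 was higher and 1 was lower. Pdp1, a phosphatase that switches pyruvate dehydrogenase on, changed by -0.42 (adjusted p = 0.00346), and Pdpr, a regulatory subunit of that phosphatase, by 0.26 (adjusted p = 0.0356).

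Of 19 genes of other pentose phosphate reactions and side branches, 4 were higher and 0 lower by limma (0 also at an unadjusted p under 0.05), with a median of 0.04. H6pd, the dehydrogenase that makes NADPH inside the endoplasmic reticulum, read 8.25, 8.29 and 8.52 with vehicle and 9.06, 9.04 and 9.13 with rGDF11. It was 1.65-fold higher, by 0.72 (adjusted p = 0.00102). The serine hydroxymethyltransferases Shmt1 and Shmt2, of one-carbon metabolism, rose by 0.34 (adjusted p = 0.0112) and 0.25 (adjusted p = 0.0437), and Gpd2, of the glycerol phosphate shuttle, by 0.25 (adjusted p = 0.0317).

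Of 20 genes of gluconeogenesis, glycogen and glucose phosphate, 4 were higher and 4 lower. The falls were genes of glycogen metabolism. Gyg, glycogenin, which primes glycogen, read 10.81, 10.83 and 10.73 against 10.20, 10.26 and 10.15, a change of -0.59 (adjusted p = 0.000728). Gbe1, the branching enzyme, changed by -0.51 (adjusted p = 0.0193), and the phosphorylases Pygb and Pygl by -0.39 (adjusted p = 0.00511) and -0.27 (adjusted p = 0.0355). The rises were Pgm2l1, which makes a sugar bisphosphate, at 0.43 (adjusted p = 0.00638), G6pc3, a widely expressed glucose phosphatase, at 0.40 (adjusted p = 0.0038), Tigar, a fructose bisphosphatase, at 0.38 (adjusted p = 0.00966), and Pck1, of gluconeogenesis, at 0.31 (adjusted p = 0.0432).

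Of 24 HIF regulators and targets outside glycolysis, 3 were higher and 3 lower, with the larger changes in both directions. Ndrg1, a stress and hypoxia gene, read 8.84, 8.78 and 8.83 with vehicle and 7.24, 7.22 and 7.23 with rGDF11, a change of -1.59 (adjusted p = 5.64e-06). Bhlhe40, a transcriptional repressor, read 7.92, 8.15 and 8.13 against 9.60, 9.72 and 9.53, 2.93-fold higher (adjusted p = 3.12e-05). Plin2, which coats lipid droplets, changed by -1.05 (adjusted p = 2.79e-05), and Vegfa, the vascular growth factor, by 0.40 (adjusted p = 0.00483). P4ha1 and P4ha2, subunits of collagen prolyl hydroxylase, moved apart, at 0.25 (adjusted p = 0.0237) and -0.33 (adjusted p = 0.00761). Targets of HIF in and outside glycolysis included genes that rose, genes that fell and genes that did not pass.

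Of 22 regulators of glycolysis, 1 was higher and 6 were lower. Txnip, which binds thioredoxin and lowers glucose uptake by acting on GLUT1, read 10.49, 10.57 and 10.44 with vehicle and 9.12, 9.19 and 8.70 with rGDF11, 2.84-fold lower (adjusted p = 0.000178). Its relative Arrdc4 changed by -0.58 (adjusted p = 0.00628), and Mlx, a partner of the factors that switch both on when glucose phosphate is plentiful, by -0.27 (adjusted p = 0.0265). Myc, a transcription factor that raises many glycolytic genes, read 9.80, 10.02 and 10.01 against 11.09, 11.19 and 11.08, 2.26-fold higher (adjusted p = 6.31e-05). The sestrins Sesn1 and Sesn2, which restrain growth signalling, changed by -1.20 (adjusted p = 8.39e-05) and -0.51 (adjusted p = 0.00145), and Prkag1, a subunit of the energy sensor AMPK, by -0.23 (adjusted p = 0.0288).

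These are bulk samples, in which fewer cells of a type and less RNA per cell cannot be told apart, so the markers of the cells are given beside the changes. Macrophage markers were bright on every array, and 0 of 10 were higher by limma (0 also at an unadjusted p under 0.05) and 5 lower (Fcgr1, Cd14, Adgre1, Cd68 and Itgam). Csf1r, the M-CSF receptor, and Lyz2 did not pass, and the summed level of the list went from 15.19 to 15.21 on the log2 scale with vehicle to 14.94 to 15.01 with rGDF11. Of 10 osteoclast markers 6 were higher and 1 (Mmp9) lower, and their summed level went from 11.22 to 11.27 up to 12.43 to 12.59. Several of these markers are genes the study had drawn from these arrays. Acp5, the TRAP enzyme, read 8.77, 8.72 and 8.83 with vehicle and 10.55, 10.58 and 10.79 with rGDF11, while Calcr, a marker of mature osteoclasts, stayed dim with a mean of 4.21.

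Among markers of other cells, 3 of 10 neutrophil genes (Cxcr2, Ngp and S100a8) were higher and 0 lower by limma (0 also at an unadjusted p under 0.05), with a summed level of 9.67 to 9.84 with vehicle and 10.27 to 10.47 with rGDF11. Of these 10 genes 5 lay below the median of all genes, among them the defining marker Ly6g with a mean of 4.60, and 5 lay above it, with means of 8.78 for Ngp, 6.96 for Elane, 6.78 for Ltf, 6.76 for S100a8 and 6.23 for Mpo. Of 10 stromal and endothelial genes 4 were higher (Col1a1, Col1a2, Pdgfrb and Pecam1), 1 was lower (Kdr) and 5 did not pass. Their summed level went from 9.25 to 9.42 up to 9.59 to 9.76. The brightest of the 10 were Col1a1, with a mean of 7.31, and Col1a2, with a mean of 7.09, and 7 lay below the median of all genes. Of 4 megakaryocyte genes 2 were lower (Pf4 at -1.10 and Ppbp at -0.34), and the summed level of the 4 went from 10.07 to 10.20 down to 9.30 to 9.51. Pf4, with a mean of 8.94, was the brightest of the 4 and fell most. Itga2b at -0.10 (limma adjusted p = 0.506) and Gp9 at -0.10 (adjusted p = 0.372) did not pass. Of 8 dendritic cell genes 1 was lower (Bst2 at -1.25) and 1 higher (Flt3 at 0.25), and the sum went from 10.42 to 10.60 down to 9.55 to 9.77. Bst2, with a mean of 9.64, was the brightest of these and carried most of that sum. Of the 8 genes 7 lay below the median of all genes, and the median change of the list was 0.22. Of 7 B cell genes 1 was lower (Cd79b), with a sum of 8.33 to 8.52 against 7.92 to 8.12. Of 9 T and NK cell genes 2 were lower (Il7r and Cd4), with a sum of 11.07 to 11.21 against 10.82 to 10.91. These 2 sums were carried mostly by Cd79b, with a mean of 7.02, and Il7r, with a mean of 10.83. Below the median of all genes lay 6 of the 7 B cell genes and 8 of the 9 T and NK cell genes. The median changes of these lists were 0.14 and -0.02. Of 6 erythroid genes 1 was higher (Alas2). The sums of the erythroid genes (9.74 to 9.93 against 9.69 to 9.82) and of the 7 mast cell and basophil genes (7.22 to 7.35 against 7.16 to 7.27) overlapped between the groups. The part of cell composition in the changes of the glycolysis genes was not tested.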

How the data were processed

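Total RNA of 6 BMM cultures, 3 per group, was profiled on Affymetrix Mouse Gene 1.0 ST arrays. The deposited values are log2 signals that the authors obtained with RMA, which corrects background, normalizes the arrays and summarises probes. The submitters' processing notes name Transcriptome Analysis Console 3.0. No source used here gives the annotation build or batches.

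Of 35556 rows, 21789 had 1 symbol, 1621 several and 12146 none. The test was limma (version 3.58.1, under R 4.3.3, two-sided, no trend), with Benjamini-Hochberg adjustment over the 23410 rows with a symbol. The median SD within a group was 0.11 and the 90th percentile 0.20, with 3.67 prior and 4 residual degrees of freedom. The number of arrays limits the precision. Symbols of all 33 genes were checked through Entrez identifiers. Isoform pairs were compared by exact permutation (scipy 1.17.1, Python 3.11.15). The limma step was tested on simulated data.

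The genes and lists were chosen with earlier results of these data known. Every measured gene of the list is named, with all arrays printed for genes called with a fold of 1.5 or more and their isoforms. Up to 4 genes with the largest called changes are named per further list, and the other called genes of those lists were added after their values were seen. Alternatives were other normalizations, limma settings, filters, the methods' t-test, other probe sets, a replicate block and leaving out each array.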

Additional observations from a re-analysis of the deposited data

How the results depend on the processing

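Between 4 and 6 of the glycolysis and transport genes were called higher and between 5 and 10 lower under the alternatives, and the median log2 change ran from -0.083 to -0.039. Leaving out 1 array at a time gave 4 to 5 higher and 5 lower. At the methods' threshold the count of genes higher, 0 as reported, was 1 (Slc16a1) after a second quantile normalization and ranged from 0 to 1 with 1 array left out, being 1 without vehicle replicate 2, vehicle replicate 3 or rGDF11 replicate 1. The count of genes lower at that threshold was 1 with a fold of 2 in place of 1.5. In the 6 further lists the count of genes higher, 13 as reported, ranged from 8 to 10 with 1 array left out, and was 8 without vehicle replicate 1 or rGDF11 replicate 1. Across genes and settings, 532 values kept direction and side of the threshold, 41 fell below it, 6 passed it and 13 changed sign. None of the 13 belonged to a called gene. After quantile normalization Ldha was at 0.0020, Hif1a at 0.0190, Bnip3 at 0.0231 and the shift of Eno3 against Eno2 at 0.0071, and after cyclic loess Bnip3 was at 0.0053. On its dimmer probe set, which is also that of its own chromosome, Bnip3 was at 0.0192. With 1 array left out the change ran from -0.0924 to 0.0450 for Eno2, from -0.0331 to 0.0443 for Pdk3, from -0.0219 to 0.0079 for Bnip3, from -0.0736 to 0.00035 for Slc16a3, from -0.0791 to 0.0135 for Hif1a and from -0.1008 to 0.0300 for the shift of Eno3 against Eno2. The cause of these changes was not tested.

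Whether the replicate numbers pair the samples could not be settled with 3 arrays per group. Same-numbered arrays deviated from their group means with correlations of 0.064, 0.335 and -0.001, beside -0.322 to 0.275 for arrays of different numbers. Of the 6 arrays 3 correlated best with their own number. With the replicate number as a block, 6 genes were higher and 5 lower, Slc2a3 (adjusted p = 0.0743) and Pkm (adjusted p = 0.0780) no longer passing, and the further lists had 12 higher and 15 lower.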
